A study of Homo sapiens with 10 samples.

Results

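The 10 genes described here encode the TGF-beta ligands (TGFB1, TGFB2, TGFB3), their receptors (TGFBR1, TGFBR2, TGFBR3) and 4 of the SMAD proteins that carry or block the signal (SMAD2, SMAD3, SMAD4, SMAD7). They are listed by name, under a rule that holds no measured value, but they were chosen with earlier results of these data known. All 10 were found among the 58302 genes listed in each of the 10 RNA-seq tables. The libraries came from 3 lines that the labels call human hepatocellular carcinoma. SK-Hep1 gave 5 libraries, namely a mock control, cells overexpressing PSPC1, PSPC1 with PTK6, a tyrosine-to-phenylalanine mutant of PSPC1 (PSPC1-YF), and PSPC1-YF with PTK6. Mahlavu gave 3, namely a mock control, cells labelled as expressing the C-terminal fragment of PSPC1 (PSPC1-CT131), and cells labelled as expressing a form with its nuclear localization sequence mutated (PSPC1-mutNLS). Huh-7 gave an untreated control and cells induced with HGF, the ligand of the MET receptor. PSPC1 is an RNA-binding protein of nuclear paraspeckles and PTK6 a tyrosine kinase, and the study asked how the 2 proteins act together in liver cancer cells, with TGF-beta signalling among the pathways it followed. Each condition was 1 library, so no spread between replicates could be measured and no test was made. The study's methods describe drug-selected clones for work in animals, and whether the sequenced lines were clones or pools is not given in the sources used here. The intervals below are exact Poisson or conditional binomial 95% intervals and cover counting error only, not the variation between cultures.

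TGF-beta is secreted bound in a latent complex that the matrix stores and that integrins and proteases open. The free ligand binds TGFBR2, a kinase that phosphorylates TGFBR1, and TGFBR1 phosphorylates SMAD2 and SMAD3, which join SMAD4 and enter the nucleus to change transcription. TGFBR3, or betaglycan, presents ligand to TGFBR2, and SMAD7 is a target of the pathway that binds the receptor and shuts it off. In liver the pathway is known for arresting hepatocyte growth, for driving scar formation, and in carcinoma for the loss of epithelial features.

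Depth ranged from 15245935 to 24278662 reads over genes per library. PSPC1 was at 0 reads in SK-Hep1 mock, which allows up to 0.0938 FPKM at 3 reads, and at 7.01, 26.4, 2.28 and 70.9 FPKM in the libraries labelled PSPC1, PSPC1/PTK6, PSPC1-YF and PSPC1-YF/PTK6, where FPKM is the read count of a gene scaled to its length and to the library total. In Mahlavu it went the other way, from 47.3 FPKM in mock to 30.8 in the library labelled PSPC1-CT131 and 22.5 in that labelled PSPC1-mutNLS, so gene counts of PSPC1 did not show these 2 labels, and every Mahlavu difference below is one between libraries as labelled. PTK6 stood at 16.7 and 10.5 FPKM in the SK-Hep1 libraries labelled with it and between 4.09 and 5.69 in the other 3. All 8 hepatocyte markers examined (such as ALB and APOA1) were above 1 FPKM in Huh-7, whereas in SK-Hep1 and Mahlavu 1 of the 8 (SERPINA1) was, and ALB, TTR and FGB had no read in any library of these 2 lines. Leukocyte markers summed to at most 18.7 FPKM, mostly CD14, and endothelial markers to at most 6.95 FPKM. Fibroblast markers summed to 102 to 341 FPKM in SK-Hep1, with COL3A1, a fibrillar collagen, at 79.3 to 287, to 39.7 to 55.5 FPKM in Mahlavu and to 173 to 186 FPKM in Huh-7.

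TGFB1 was the highest of the 3 ligands in every library. Among the SK-Hep1 libraries its level was 459 FPKM with mock, 698 with PSPC1, 486 with PSPC1/PTK6, 680 with PSPC1-YF and 802 with PSPC1-YF/PTK6. In Mahlavu it was 418 FPKM in mock, 1069 in the library labelled PSPC1-CT131 and 679 in that labelled PSPC1-mutNLS, and in Huh-7 it was 48.0 FPKM in the control and 49.1 with HGF. In the SK-Hep1 mock library the level of TGFB1 was above that of 98.7% of the genes with any read.

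TGFB2, the ligand that depends most on TGFBR3 for binding, was at 7.62 FPKM in SK-Hep1 mock and at 22.1, 27.1, 10.8 and 15.1 FPKM in the libraries labelled PSPC1, PSPC1/PTK6, PSPC1-YF and PSPC1-YF/PTK6. All 4 transfected SK-Hep1 libraries were thus above their mock, and the 2 with wild-type PSPC1 were above the 2 with PSPC1-YF. After quantile normalization, 31.8% of all genes had both wild-type libraries outside the range of the other 3 SK-Hep1 libraries. The Mahlavu levels of TGFB2 ran the other way, with 16.7 FPKM in mock, 7.19 in the library labelled PSPC1-CT131 and 12.1 in that labelled PSPC1-mutNLS. Huh-7 had 1.74 FPKM in the control and 1.71 with HGF. TGFB3 was close to absent in SK-Hep1, with 1 to 7 reads a library and no level above 0.235 FPKM. It had 61, 22 and 29 reads in the Mahlavu mock, PSPC1-CT131 and PSPC1-mutNLS libraries (2.19, 0.905 and 1.24 FPKM) and 15 and 25 reads in Huh-7 control and HGF.

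The promoters of TGFB1 and TGFB2, the 2 ligands that passed a 2-fold difference from a control, are shown because they differ in make-up and because the TGFB2 one lies within an antisense gene that is counted apart. Both are RefSeq promoters of GRCh38.p14 from 250 bases before to 50 after the start site, printed 5′ to 3′ on the gene's strand. Both strands were searched, and capitals mark the GC box GGGCGG, read as CCGCCC where it lies on the other strand, the TATA box TATAAA and the E-box CACGTG. TGFB1 lies at chr19:41353873-41354172 on the minus strand and TGFB2 at chr1:218345086-218345385 on the plus strand.
TGFB1: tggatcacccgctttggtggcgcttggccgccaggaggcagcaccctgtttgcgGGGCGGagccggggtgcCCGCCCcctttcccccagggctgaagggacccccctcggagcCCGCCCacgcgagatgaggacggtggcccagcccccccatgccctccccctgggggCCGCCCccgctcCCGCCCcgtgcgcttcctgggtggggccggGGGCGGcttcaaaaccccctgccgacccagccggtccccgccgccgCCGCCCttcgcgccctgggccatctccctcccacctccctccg
TGFB2: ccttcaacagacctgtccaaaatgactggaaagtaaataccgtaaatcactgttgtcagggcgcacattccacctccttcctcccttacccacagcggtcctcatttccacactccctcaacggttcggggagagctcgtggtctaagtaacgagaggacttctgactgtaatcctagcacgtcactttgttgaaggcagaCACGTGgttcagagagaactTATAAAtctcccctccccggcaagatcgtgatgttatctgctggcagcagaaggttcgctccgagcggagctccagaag

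The TGFB1 promoter was 77.3% G and C and held the GC box 7 times, with neither of the other motifs. The TGFB2 promoter was 51.7% G and C, held no GC box, and carried 1 TATA box 29 bases and 1 E-box 49 bases before the start. Of 35116 RefSeq promoters of the same length, 45% held the GC box, 11.5% the TATA box and 7.26% the E-box. In the deposited tables TGFB2 starts at 218346235 (chromosome 1, to 218444619), 899 bases downstream of the RefSeq start, and the printed window lies within TGFB2-AS1, an antisense gene on the minus strand from 218344196 to 218345678. The library kit named in the labels does not mark strand by itself and the strand setting of the counter is not given, so within TGFB2-AS1 reads from the RefSeq 5′ end of TGFB2 and from the antisense RNA cannot be told apart. The counted TGFB2 does not overlap TGFB2-AS1, so this limit touches the values of TGFB2-AS1 and not those of TGFB2. TGFB2-AS1 was at 5.38 FPKM in SK-Hep1 mock and 17.0, 17.9, 9.62 and 11.3 FPKM in the libraries labelled PSPC1, PSPC1/PTK6, PSPC1-YF and PSPC1-YF/PTK6. It was at 9.97 FPKM in Mahlavu mock, 2.99 in PSPC1-CT131 and 8.94 in PSPC1-mutNLS, the same order as TGFB2 in SK-Hep1 and in Mahlavu. TGFB1 (chromosome 19, 41301587 to 41353911, minus strand) has a similar limit at its other end, where 6012 bases overlap HNRNPUL1, the overlapping gene with the most reads, on the plus strand. HNRNPUL1 was at 365 FPKM in Mahlavu mock and 386 in the library labelled PSPC1-CT131, beside 418 and 1069 FPKM for TGFB1.

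Among the receptors, TGFBR1 was at 10.4, 8.56, 12.0, 15.7 and 8.40 FPKM in SK-Hep1 mock, PSPC1, PSPC1/PTK6, PSPC1-YF and PSPC1-YF/PTK6. It was at 10.4, 7.24 and 10.4 FPKM in Mahlavu mock, PSPC1-CT131 and PSPC1-mutNLS, and at 19.9 and 17.2 FPKM in Huh-7 control and HGF. The PSPC1-YF library without PTK6 was thus the highest outside Huh-7. TGFBR2, the receptor that first binds ligand, was at 10.6 FPKM in SK-Hep1 mock and at 5.49, 5.67, 9.19 and 9.70 FPKM in PSPC1, PSPC1/PTK6, PSPC1-YF and PSPC1-YF/PTK6. It was at 11.9, 12.4 and 10.7 FPKM in the 3 Mahlavu libraries in the same order as above, and at 40.2 and 34.5 FPKM in Huh-7. Both wild-type PSPC1 libraries were therefore the lowest of all 10. Within SK-Hep1, 31.8% of all genes had both of them outside the range of the other 3 libraries after quantile normalization. TGFBR3 was at 7.01, 12.1, 12.6, 9.56 and 6.57 FPKM in SK-Hep1, at 6.27, 7.11 and 10.2 FPKM in Mahlavu, and at 17.9 and 21.7 FPKM in Huh-7, each in the order given for TGFBR1.

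On the deposited FPKM SMAD3 was the highest of the 4 SMADs in every library, and SMAD2 varied least. SMAD3 was at 287, 319, 383, 282 and 273 FPKM in SK-Hep1 mock, PSPC1, PSPC1/PTK6, PSPC1-YF and PSPC1-YF/PTK6, at 217, 209 and 129 FPKM in Mahlavu mock, PSPC1-CT131 and PSPC1-mutNLS, and at 75.8 and 78.2 FPKM in Huh-7 control and HGF. SMAD2, its partner in the receptor-activated complex, stayed between 6.77 and 11.7 FPKM over the 10 libraries, a 1.72-fold range and the narrowest of the 10 genes. The ratio of SMAD3 to SMAD2 ran from 7.61 to 34.9 across libraries on the deposited FPKM.

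SMAD4, the common partner, was at 10.1, 10.0, 16.1, 7.67 and 10.2 FPKM in SK-Hep1, with the highest value in PSPC1/PTK6, at 15.6, 12.3 and 15.8 FPKM in Mahlavu, and at 45.1 and 43.0 FPKM in Huh-7. SMAD7, the inhibitory member, was at 8.87 FPKM with mock, 7.74 with PSPC1, 8.98 with PSPC1/PTK6, 14.6 with PSPC1-YF and 17.1 with PSPC1-YF/PTK6 in SK-Hep1. Both PSPC1-YF libraries were above the other 3 SK-Hep1 libraries. After quantile normalization, 22.9% of all genes had both outside the range of the other 3, in either direction. In Mahlavu SMAD7 was at 19.5 FPKM in mock, 26.1 in the library labelled PSPC1-CT131 and 13.7 in that labelled PSPC1-mutNLS, and in Huh-7 at 53.2 and 50.5 FPKM.

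Levels of different genes can be ordered only with a caveat on length. The deposited FPKM follow from 1 length per gene that is shorter than the length printed in the same tables, for instance 1030 against 2769 bases for TGFB1, 1238 against 6247 for SMAD3 and 4613 against 4621 for TGFBR2. TGFB1 and then SMAD3 led the 10 genes in all 8 SK-Hep1 and Mahlavu libraries on either length. In Huh-7 the order turned on it. In the control library SMAD3, SMAD7 and TGFB1 led on the deposited FPKM, while on the printed length TGFBR2 led, at 40.1, ahead of SMAD7 (21.1), TGFB1 (17.8) and SMAD3 (15.0). In SK-Hep1 mock SMAD2, TGFBR2, TGFBR1 and SMAD4 were too close to order on the deposited FPKM (10.6, 10.6, 10.4 and 10.1), whereas on the printed length TGFBR2 was at 10.6 and SMAD2 at 1.68. Ratios of deposited FPKM between libraries for 1 gene are not touched by this choice. The log2 differences below can be, since they use a level filter, an added 1 and, for constructs, quantile normalization.

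Before any construct, the 3 lines differed in most of these genes. Of 29 values that could be compared between the SK-Hep1 mock, Mahlavu mock and Huh-7 control libraries (mean of at least 1 FPKM), 17 differed at least 2-fold on the deposited FPKM plus 1, or 58.6%, where 46.1% of all genes tested over the same 3 contrasts did. The differences lay mainly against Huh-7: 7 of 9 members compared passed 2-fold against SK-Hep1 and 7 of 10 against Mahlavu, where 54.1% and 44.7% of all genes did, and 3 of 10 passed between Mahlavu and SK-Hep1, where 39% did. Huh-7 control was lower than SK-Hep1 mock in TGFB1 (9.40-fold, counting interval of the FPKM ratio 0.0971 to 0.112), SMAD3 (3.75-fold) and TGFB2 (3.15-fold). It was higher in SMAD7 (5.49-fold, ratio interval 5.20 to 6.93), SMAD4 (4.15-fold), TGFBR2 (3.56-fold) and TGFBR3 (2.35-fold). The same 7 genes passed 2-fold against Mahlavu mock, in the same directions, with TGFB1 8.55-fold and TGFB2 6.46-fold lower in Huh-7. TGFBR1 was 1.83-fold higher and SMAD2 1.07-fold lower in Huh-7 control than in SK-Hep1 mock, both short of 2-fold. With length and G and C content taken out, the log2 difference between these 2 libraries was -2.27 for TGFB1 in place of -3.23, TGFBR3 was short of 2-fold at 0.90, and SMAD2 passed it at -1.09. Between Mahlavu and SK-Hep1 mock the differences past 2-fold were all higher in Mahlavu, at 2.05-fold for TGFB2, 2.60-fold for TGFB3 (61 against 6 reads) and 2.08-fold for SMAD7. TGFB3 passed the level filter there only through Mahlavu, at 2.19 FPKM against 0.225 in SK-Hep1, so its call was nearly fixed by the filter. Each line entered this comparison with 1 control library, so line and library cannot be told apart.

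For the effect of each construct, values were quantile-normalized within the 8 SK-Hep1 and Mahlavu libraries and within the 2 Huh-7 libraries, 1 was added, and a gene was called at a 2-fold difference. The ratios and counting intervals printed beside log2 fold changes are of the deposited FPKM, without normalization or the added 1. A fold change can therefore lie outside the interval beside it. TGFBR2 in PSPC1-YF/PTK6 against PSPC1/PTK6, for example, was 2.09-fold higher after normalization, with an interval of 1.55 to 1.89. The 10 genes gave 66 values against control that passed the mean of 1 FPKM, of which 3 rose (4.55%) and 1 fell (1.52%), where 3.02% of all genes tested rose and 2.3% fell over the same 7 contrasts. The share of members past 2-fold was thus close to that of all genes, and what follows describes which members they were. The values against control share their mock library within each line. Among all genes past 2-fold, the share that was higher depended on scaling, at 60.5% for PSPC1/PTK6 and 50.1% for PSPC1-CT131 after quantile normalization against 80.7% and 16.3% on the deposited FPKM.

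TGFB2 gave 2 of the 3 rises. It rose in the library labelled PSPC1 (log2 fold change 1.37, FPKM ratio 2.90, counting interval 2.62 to 3.23) and in that labelled PSPC1/PTK6 (1.48, ratio 3.56, interval 3.22 to 3.94). With PSPC1-YF the log2 difference was 0.49 and with PSPC1-YF/PTK6 0.97, short of 2-fold. TGFB2 was the single member of 9 tested that rose with PSPC1, where 3.38% of all genes did, and likewise of the 9 tested with PSPC1/PTK6, where 5.09% did. Both rises held under all 9 other settings tried, between 1.09 and 1.47 for PSPC1 and between 1.18 and 1.73 for PSPC1/PTK6. TGFB2-AS1 also passed 2-fold in these 2 libraries, with log2 differences of 1.48 and 1.28, and in PSPC1-YF/PTK6 (1.01), under the limit on its reads given above. The summed fibroblast markers were likewise highest in these 2 libraries, at 209 and 341 FPKM against 102 to 178 in the other 3 SK-Hep1 libraries. Most of the sum was COL3A1, and no other marker of the list had its 2 highest SK-Hep1 values there. COL1A1 was highest in mock (15.4 FPKM), COL1A2 in PSPC1-YF (1.82 FPKM) and PDGFRB in PSPC1-YF/PTK6 (43.0 FPKM). LUM and PDGFRA were highest in PSPC1/PTK6, below 1 FPKM. The part of these markers in the result was not tested.

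TGFBR2 gave the single fall. Its log2 fold change was -1.06 with PSPC1/PTK6 (FPKM ratio 0.536, counting interval 0.485 to 0.593), where 3.32% of all genes fell, and -0.74 with PSPC1 (ratio 0.519, interval 0.466 to 0.577). On the deposited FPKM both libraries stood at about the same distance from mock, and the fall with PSPC1/PTK6 passed 2-fold under 5 of the 9 other settings (-1.19 to -0.73). With PSPC1-YF and PSPC1-YF/PTK6 the log2 differences of TGFBR2 were -0.10 and 0.00. None of the 9 members tested passed 2-fold in the PSPC1-YF library, where 5.29% of all genes did, or in the PSPC1-YF/PTK6 library, where 5.03% did. The nearest there were TGFB2 at 0.97 and SMAD7 at 0.94 (509 against 236 reads, ratio 1.93, interval 1.65 to 2.26).

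TGFB1 rose in the library labelled PSPC1-CT131 against Mahlavu mock, by 1.36 on the log2 scale (21796 against 9761 reads, ratio 2.56, interval 2.50 to 2.62), as 1 of 10 members where 3.17% of all genes rose and 3.16% fell. In the library labelled PSPC1-mutNLS its log2 difference was 0.67, and in the 4 SK-Hep1 contrasts 0.60, 0.16, 0.63 and 0.74, all above 0 and short of 2-fold. The sign in the SK-Hep1 library labelled PSPC1/PTK6 depended on scaling, with other settings between -0.09 and 0.16. Fold changes in the PSPC1-CT131 contrast moved with base composition across genes (Spearman's rho 0.57 between log2 fold change and G and C content of the longest transcript, between -0.10 and 0.25 in the other 6 contrasts against control), and TGFB1 is 63.5% G and C. With length and G and C content taken out, the TGFB1 difference was 0.99. TGFB2, at 38.9% G and C, had -0.81 in this contrast and -0.42 after the same step, and on the deposited FPKM it passed 2-fold downwards at -1.11.

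In the library labelled PSPC1-mutNLS none of the 10 members passed 2-fold, where 6.42% of all genes did. SMAD3 was nearest, at -0.85 (3040 against 6091 reads, ratio 0.593, interval 0.568 to 0.620, other settings -0.85 to -0.59), followed by TGFBR3 at 0.79. SMAD2 and SMAD4 stood at 0.13 and 0.12 in the same library. HGF treatment of Huh-7 also left all 10 members short of 2-fold, where 0.82% of all genes passed it. Their log2 differences ran from -0.21 (TGFBR2, ratio 0.857, interval 0.813 to 0.905) to 0.41 (TGFB3, 25 against 15 reads, ratio 1.79, interval 0.908 to 3.65), and TGFB1, TGFB2 and the 4 SMADs lay between -0.06 and 0.05.

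Between constructs, 3 of 45 tested values of the members passed 2-fold (6.67%), against 6.2% of all genes tested in the same 5 contrasts. TGFBR2 and SMAD7 were higher in PSPC1-YF/PTK6 than in PSPC1/PTK6, with log2 differences of 1.07 (ratio 1.71, interval 1.55 to 1.89) and 1.18 (ratio 1.90, interval 1.64 to 2.22), where 6.96% of all genes passed 2-fold either way. The same pair differed in the same direction without PTK6, at 0.64 and 0.83 for PSPC1-YF against PSPC1, short of 2-fold. SMAD7 was also higher in the library labelled PSPC1-CT131 than in that labelled PSPC1-mutNLS, by 1.13 (ratio 1.91, interval 1.67 to 2.19), where 8.82% of all genes passed, and by 0.76 once length and G and C content were taken out. All 3 depended on scaling, being at 0.68, 0.86 and 0.89 on the deposited FPKM. Adding PTK6 moved no member past 2-fold, with either PSPC1 (4.96% of all genes passed) or PSPC1-YF (5.98%). The widest differences were TGFBR1 at -0.75 with PSPC1-YF/PTK6 against PSPC1-YF and TGFB1 at -0.45 with PSPC1/PTK6 against PSPC1. For PSPC1-YF against PSPC1 no member passed either (4.25% of all genes did), and TGFB2 was nearest at -0.88.

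**Figure D1:**
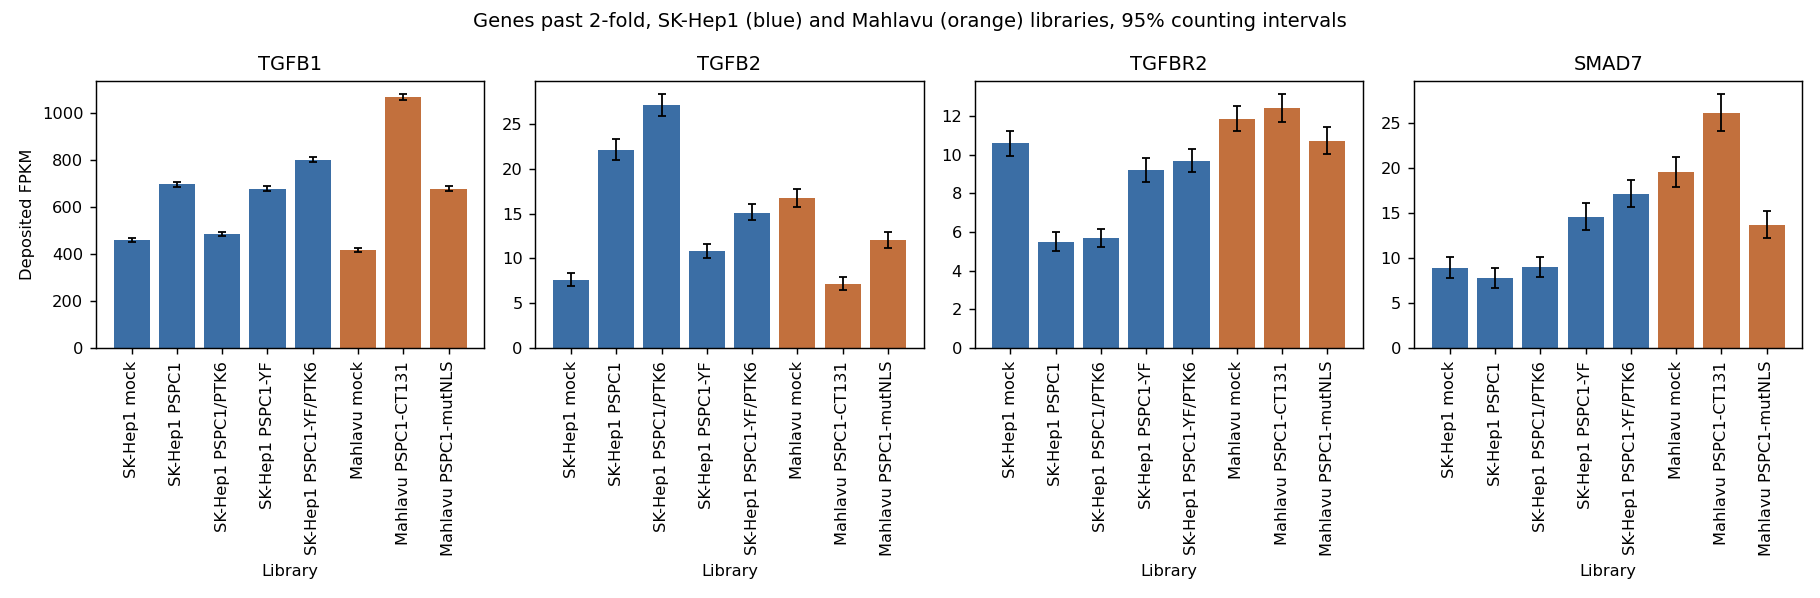
Deposited FPKM of TGFB1, TGFB2, TGFBR2 and SMAD7, the 4 genes past 2-fold in at least 1 contrast, in the 5 SK-Hep1 (blue) and 3 Mahlavu (orange) libraries, bars from 0 with 95% counting intervals. TGFB2 is highest (22.1 and 27.1) and TGFBR2 lowest (5.49 and 5.67) in the 2 wild-type PSPC1 libraries, and SMAD7 in SK-Hep1 is highest in the 2 PSPC1-YF libraries (14.6 and 17.1).

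Several members in SK-Hep1 were split by the labelled form of PSPC1, with and without PTK6, a reading of the 5 libraries that was chosen after the values were seen. In 5 of 9 members tested, both wild-type libraries lay outside the range of the other 3 libraries on the normalized values, as did 31.8% of all genes. These were TGFB2, TGFBR3 and SMAD3 above, and TGFBR2 and SMAD7 below. TGFBR2 had 5.18 and 6.76 normalized FPKM there against 11.1 to 11.9 in the other 3 libraries, and TGFB2 24.3 and 26.2 against 8.79 to 18.1. Both PSPC1-YF libraries lay outside the range of the other 3 in 4 of 9 members, TGFB1 and SMAD7 above and SMAD2 and SMAD3 below, as did 22.9% of all genes. SMAD7 had 17.2 and 20.3 normalized FPKM there against 8.40 to 10.1. On the deposited FPKM the counts were 4 and 3 of 9, since SMAD7 in the wild-type pair and TGFB1 in the PSPC1-YF pair then overlapped.

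Around the 10 genes, 83 other genes of the pathway in 7 lists were examined. Of these, 69 were tested in at least 1 contrast against control, and 35 passed 2-fold in at least 1. No matching share of all genes is given for that count, so only the shares of values can be set beside all genes. Of 396 values tested, 34 rose (8.59%) and 27 fell (6.82%), against 3.02% and 2.3% of all genes. The lists were drawn up with earlier results of these data known, so these shares are a description. In the HGF contrast none of 61 genes tested passed, where 0.82% of all genes did.

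The genes of latent storage and activation hold the binding proteins LTBP3 and LTBP4, which anchor latent TGF-beta. LTBP3 was at 12.1 FPKM in SK-Hep1 mock and at 41.0, 46.7, 24.1 and 64.4 FPKM in PSPC1, PSPC1/PTK6, PSPC1-YF and PSPC1-YF/PTK6, rising past 2-fold in 3 of the 4 (1.65, 1.72 and 2.28, with 0.95 for PSPC1-YF). LTBP4, the most abundant of the list, was at 159 FPKM in SK-Hep1 mock, 416 in PSPC1 and 322 in PSPC1/PTK6, and went from 25.6 in Mahlavu mock to 57.9 and 93.0 in the libraries labelled PSPC1-CT131 and PSPC1-mutNLS. It therefore passed 2-fold in 4 of these 6 contrasts. NRROS, which tethers latent TGF-beta 1 to the surface of cells, rose in all 4 SK-Hep1 contrasts, from 0.176 FPKM to between 2.01 and 3.32, close to the level filter. It was tested only through the libraries where it was high, so its calls as higher were nearly fixed by the filter. NRROS is 1 of the rises counted below in each SK-Hep1 contrast and the single one with PSPC1-YF. THBS1, an activator of the latent complex, fell in Mahlavu, from 69.9 FPKM to 30.6 and 25.6, and was between 209 and 330 in SK-Hep1. BMP1, a protease of the matrix, rose with PSPC1-YF/PTK6 (1.08). With each of PSPC1, PSPC1/PTK6 and PSPC1-YF/PTK6, 3 of 8 tested members of this list rose, against 3.38%, 5.09% and 3.44% of all genes. With PSPC1-YF 1 of 8 rose (2.83% of all genes), and none fell in SK-Hep1. In each Mahlavu contrast 1 of 7 rose and 1 fell. Of all genes 3.17% rose and 3.16% fell with PSPC1-CT131, and 3.16% rose and 3.26% fell with PSPC1-mutNLS. None of 7 passed 2-fold with HGF, where 0.82% of all genes did.

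Among other receptors of the family, ENG, or endoglin, an accessory receptor best known from endothelium, was at 150 to 246 FPKM in SK-Hep1 and at most 1.75 FPKM elsewhere. ACVRL1, which pairs with endoglin there, was the 1 receptor to pass 2-fold, higher with PSPC1/PTK6 (2.05 to 7.95 FPKM, log2 1.24) and lower with PSPC1-YF (0.472 FPKM, -1.11). It was 1 of 8 tested in each, where 5.09% of all genes rose with PSPC1/PTK6 and 2.46% fell with PSPC1-YF. Among other ligands, GDF15, a stress-induced cytokine, rose with PSPC1/PTK6 (406 to 971 FPKM) and in the library labelled PSPC1-mutNLS (9.26 to 20.8). BMP4 fell in both Mahlavu construct libraries, from 44.1 FPKM to 13.2 and 11.0, INHBE rose in the library labelled PSPC1-mutNLS (2.47 to 16.1 FPKM, log2 2.48) and was at 2.52 FPKM with PSPC1-CT131, and INHBB fell with PSPC1/PTK6 (-1.71). Of the extracellular antagonists, FSTL1 rose with PSPC1/PTK6 (155 to 394 FPKM) and fell with PSPC1-CT131 (168 to 58.0), and NOG, a BMP inhibitor, rose with PSPC1-YF/PTK6 (1.08) and PSPC1-CT131 (1.16).

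Inside the cell, SMAD6, the inhibitory SMAD of the BMP branch, went from 23.7 FPKM in Mahlavu mock to 14.2 in the library labelled PSPC1-CT131 and 2.07 in that labelled PSPC1-mutNLS (log2 -2.91). This was the single fall in its list against a control, 1 of 7 tested in that contrast, where 3.26% of all genes fell. The single rise there was also of SMAD6, with PSPC1-YF/PTK6 (4.42 to 9.66 FPKM, log2 1.04), 1 of 6 tested, where 3.44% of all genes rose. That rise was short of 2-fold with length and G and C content taken out (0.90). In the library labelled PSPC1-mutNLS the ID genes, targets of BMP receptors as well as of TGF-beta, also fell. ID1 was at 91.5, 83.4 and 16.0 FPKM in Mahlavu mock, PSPC1-CT131 and PSPC1-mutNLS, ID3 at 109, 92.2 and 15.2, and ID2 at 25.5, 16.2 and 7.41. Their log2 fold changes with PSPC1-mutNLS were -2.60, -2.95 and -1.67. SMAD7, the other inhibitory SMAD, had -0.44 there. SMAD5, the most abundant gene of its list, did not pass 2-fold in any contrast against control. XPO4, an exportin that carries SMAD3 out of the nucleus, was singled out after its values were seen. It had no read in any of the 5 SK-Hep1 libraries, which allows up to 0.0281 FPKM at 3 reads a library, and 3.82 to 9.90 FPKM in the other 5. Of the negative regulators, SKI was the most abundant (43.4 to 97.6 FPKM), PMEPA1 rose with PSPC1-CT131 (1.14) and TGIF1 with PSPC1-mutNLS (1.15).

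The 20 response genes split both ways in most contrasts. FN1, fibronectin, fell in all 4 SK-Hep1 contrasts, from 95.7 FPKM in mock to 18.2, 11.2, 21.1 and 41.8 FPKM in PSPC1, PSPC1/PTK6, PSPC1-YF and PSPC1-YF/PTK6 (log2 -2.20, -3.11, -2.00 and -1.07), and was at 2144 and 2291 FPKM in Huh-7. SNAI2, a transcription factor of epithelial-mesenchymal transition, fell with wild-type PSPC1 (16.3 FPKM to 3.53 and 5.85) but stood at 13.7 and 13.0 with PSPC1-YF. With PSPC1, 4 of 17 tested fell (23.5%, against 2.19% of all genes) and none rose, while TGFB1 and TGFB2 were both above mock there. The 4 were FN1, SNAI2, ID2 (-1.28) and TGFBI (-1.17), the latter pair at 2.87 and 1.93 FPKM in mock. With PSPC1/PTK6, 4 of 17 fell and 2 rose, against 3.32% and 5.09% of all genes, BHLHE40 with 1.19 and JUNB with 1.03. With PSPC1-YF TAGLN rose (1.32), and FN1 and COL1A1 fell (COL1A1 -1.61), so that 1 of 17 rose and 2 fell, against 2.83% and 2.46% of all genes. With PSPC1-YF/PTK6 TGFB1I1 rose (1.35) and FN1 fell, 1 of 17 each way, against 3.44% and 1.59% of all genes.

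In the library labelled PSPC1-CT131, where TGFB1 was highest, 5 of 20 response genes rose and 2 fell, against 3.17% and 3.16% of all genes. Among those that rose were CDKN1A, a cell-cycle inhibitor (4.81 to 10.3 FPKM, log2 1.37), BHLHE40 (1.29), KLF10 (1.19) and MMP2 (1.13). TAGLN and ACTA2, genes of contractile cells, fell (-2.31 and -1.62). In the library labelled PSPC1-mutNLS 3 rose, BHLHE40 (1.64), SNAI1 (1.15) and CDKN1A (1.08), and 5 fell, the 3 ID genes, TPM1 (-1.68) and TAGLN (-1.56), against 3.16% and 3.26% of all genes. The median over the 20 genes was 0.25 with PSPC1-CT131 and -0.15 with PSPC1-mutNLS, beside 0.01 and 0.00 for all genes. Fold changes in the PSPC1-CT131 contrast moved with G and C content across genes (Spearman's rho 0.57). The part of base composition in these counts and in the median was not tested.

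Over the 10 libraries, the genes whose levels followed these members most closely were found by Pearson's r of log2(FPKM plus 1) among 13810 other genes. The points share cell line and library, and the contrast of Huh-7 with the other 2 lines weighs heavily, so r is given as a description. TGFB1 was closest to FPGS (0.996), TUBA1A (0.990) and FAM50A (0.990). TGFB2 was closest to its antisense neighbour TGFB2-AS1 (0.984), then LIMCH1 (0.969) and FSTL1 (0.963). The reads of TGFB2-AS1 can include some of TGFB2 itself, as said above. TGFBR2 was closest to DPP3 (0.988), SHLD1 (0.987) and UBL7-DT (0.985).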

How the data were processed

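RNA-seq libraries of 10 conditions were analysed, 1 a condition. Per the labels, poly-A RNA was prepared with a NEBNext Ultra kit, whereas the study's methods describe rRNA depletion. The submitters' processing notes name TopHat2 2.0, HTSeq 0.6.1, edgeR and GRCh38.p12, and the study's methods another build. Positions of 97.6% of 58039 shared genes were those of GENCODE 29, which is on GRCh38. The authors deposited whole read counts, with no scaling, for the 8 SK-Hep1 and Mahlavu libraries. For all 10 the authors deposited FPKM, which were not quantile-normalized as deposited. The 8 lines of text that name no gene were left out of every table. Huh-7 reads were recovered as whole multiples of the FPKM worth of 1 read (100% of values within 0.05 of a whole number).

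Symbols were matched by ID for 57532 of 58302 genes. FPKM were quantile-normalized over the 8 libraries and over the 2 Huh-7 libraries, 1 was added, and log2 differences were taken where the 2 libraries compared averaged 1 FPKM or more. Lines were compared on deposited FPKM. A gene was called at 2-fold, with no test. Alternatives were pseudocounts of 0.1 and 5, deposited FPKM, FPKM scaled to sum to 1000000, no filter, a mean of 5 FPKM, normalization within each line, TMM scaling of counts (edgeR 4.0.16, R 4.3.3), and gene length and GC content taken out by a quadratic fit. Python 3.11.15, numpy 2.4.6, pandas 2.3.3 and scipy 1.17.1 were used. As a check of the calculation, 2 libraries were simulated from SK-Hep1 mock with counting error alone. All 200 of 200 genes changed 4-fold, each at 5 FPKM or more, were recovered, and 12 of 11544 unchanged genes were called. The check does not cover differences near 2-fold, lower levels or variation between cultures.

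The members and the lists were chosen with earlier results of these data known. Named were all members, PSPC1 and PTK6, the highest gene of each other list and its largest rise and fall past 2-fold in each contrast against control, and the 3 genes most like TGFB1, TGFB2 and TGFBR2. Other genes were named after their values were seen, and 1 gene of the lists is counted but not reported here by name. Intervals cover counting error only.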

Additional observations from a re-analysis of the deposited data

How the results depend on the processing

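With 1 library a group, no replicate could be left out. No paired analysis was possible because each group holds 1 library, so that groups share fewer than 2 replicate numbers. The count of 3 rises of members against control was 3 or 4 under 8 of the 9 alternatives and 5 with TMM scaling, which added TGFB2 and SMAD7 in PSPC1-YF/PTK6 (1.04 and 1.01). With length and GC content taken out the count was 3, but TGFB1 in PSPC1-CT131 was lost (0.99) and TGFB2 in PSPC1-YF/PTK6 gained (1.03). The single fall, TGFBR2, was lost with a pseudocount of 5 (0) and with TMM scaling (0, at -0.95). On the deposited FPKM and on FPKM scaled to a common sum the count of 1 came from TGFB2 in PSPC1-CT131 instead. The 3 differences between constructs became 0 with a pseudocount of 5, 0 on the deposited FPKM and 0 on FPKM scaled to a common sum. These last scalings moved the median of all genes to between -0.31 and 0.20, against -0.04 to 0.01 after quantile normalization. The 34 rises of other pathway genes became 17 with a pseudocount of 5. Without both Mahlavu construct libraries, an alternative chosen after seeing the data, they became 19 and the 27 falls became 14, over fewer contrasts, while without PSPC1-CT131 alone they were 26 and 22. The 17 differences between lines ranged from 12 to 18. Of 1156 values of single members under the alternatives, 1108 kept their sign, the 48 others had a main value of at most 0.44 in size, and none of the differences past 2-fold changed sign. The cause of these shifts was not tested.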
